A study of Mus musculus with 24 samples.

Results

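The genes described here are 10 receptors, bridging ligands and an adaptor through which phagocytes, astrocytes among them, take up synapses and dying cells: Mertk, Megf10, Axl, Tyro3, Gas6, Pros1, Gulp1, Mfge8, Itgb5 and Lrp1. They are 10 of the 18193 genes tested. Each gene is read from its brightest probe set, judged by the mean of the 24 arrays, out of 19 probe sets that the array annotation assigns to one of the 10 symbols and to no other gene. The rule lists the genes by name.

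RNA from mouse cerebral cortex was measured on Affymetrix whole-genome mouse arrays. All animals carried aldh1l1-eGFP-L10a, a ribosomal protein tagged with green fluorescent protein and driven by the promoter of the astrocyte gene Aldh1l1. An antibody pull-down of the tagged ribosomes gave a bound fraction, which holds the RNA attached to ribosomes of cells in which the promoter was active. The unbound fraction is the supernatant, with RNA of the remaining cells and any other RNA that was not pulled down. Astrocyte markers were not absent from it, with mean levels of 8.86 to 9.48 on the unbound arrays. Each of the 18 bound arrays holds 1 animal, with 6 animals per state, and each of the 6 unbound arrays holds a pool of 3 of them: per state, 1 pool came from animals 1 to 3 and the other from animals 4 to 6.

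Sleeping mice were killed in the light phase at 3 to 5 pm, after a sleep bout of over 45 min and at least 75% sleep in the preceding 6 to 7 h. Waking mice were killed in the dark phase at 3 to 5 am, after a bout of wake of over 1 h and at least 70% of the preceding 6 to 7 h awake. Sleep-deprived mice were kept awake for 4 h of the light phase with new objects. Waking and sleep therefore also differ in time of day. The genotype was the same in every group, and no group lacked the transgene.

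The engulfment of a cell or synapse begins when phosphatidylserine appears on its surface. The receptor tyrosine kinases Tyro3, Axl and Mertk (the TAM receptors) recognise it through the bridging proteins Gas6 and Pros1, which bind phosphatidylserine with one end and a receptor with the other, while Mfge8 links it to integrins that contain the beta 5 subunit Itgb5. Megf10 and Lrp1 are further uptake receptors, both of which can signal through the adaptor Gulp1, and Mertk and Megf10 are known as receptors through which astrocytes clear synapses.

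The deposited values are log2 levels, with no counts behind them, and precision is limited by the number of arrays. Levels of different probe sets are not comparable with each other, so each gene is compared only with itself. The transgene's driver gene Aldh1l1 was 13.2-fold higher in the bound fraction, with a mean of 10.90 ± 0.25 (SD, n = 18) against 7.02 ± 0.17 (SD, n = 6), and the ribosomal protein gene Rpl10a, whose tagged copy is the target of the pull-down, was 2.24-fold higher. All 12 astrocyte markers were higher in the bound fraction, with a median log2 difference of 3.13, and 10 of 12 neuron markers and 6 of 11 microglia markers were lower. Markers of meninges were higher too, 6 of 7. Of 8 markers of ependyma and choroid plexus 3 were higher, or 37.5%, which is below the share of all genes. Of all genes, 42.2% were higher and 27.2% lower. Single markers of other cell types were also higher, among them microglial Trem2 (1.24-fold), oligodendrocyte Cnp (1.25-fold) and the pericyte gene Pdgfrb (3.57-fold). Lower were 7 of 8 oligodendrocyte markers and 3 of 6 pericyte and smooth muscle markers. Differences below are log2 differences relative to the median of all genes, which lay at 0.09 for waking and 0.11 for sleep deprivation against sleep in the bound fraction, at 0.30 and 0.18 for the same comparisons in the unbound fraction, and at 0.16 between fractions. Tests and adjusted p-values refer to the differences before that median was subtracted, and a gene passed with an adjusted p under 0.05 over all 18193 genes.

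Of the 10 genes, 9 were higher in the bound fraction and 1, Tyro3, was lower. All 10 passed the test between the fractions (limma with Benjamini-Hochberg adjustment), as did 69.4% of all genes, 42.2% in the higher and 27.2% in the lower direction. The pools hold the same animals as the bound arrays, but this fit took all arrays as independent, with 1 shared spread. With bound arrays averaged per pool and the pool as a block, all 10 still passed. Over the alternatives to the fit, adjusted p-values rose to as much as 1.58e-05 for Axl, 1.99e-05 for Mertk and 0.000439 for Megf10. The p-values of single genes below are those of the fit without a block. The median log2 difference of the 10 genes was 2.19, against a median of all genes that is 0 by construction. Levels of 8 genes were higher on every one of the 18 bound arrays than on any of the 6 unbound arrays, and Tyro3 was lower on all 18. Of all genes, 17.2% lay apart in the former direction and 10.1% in the latter. Only Lrp1 overlapped between fractions, with 16 of 18 bound arrays above the highest unbound one. In such bulk samples, fewer cells of a type and less RNA per cell cannot be told apart.

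**Figure D1:**
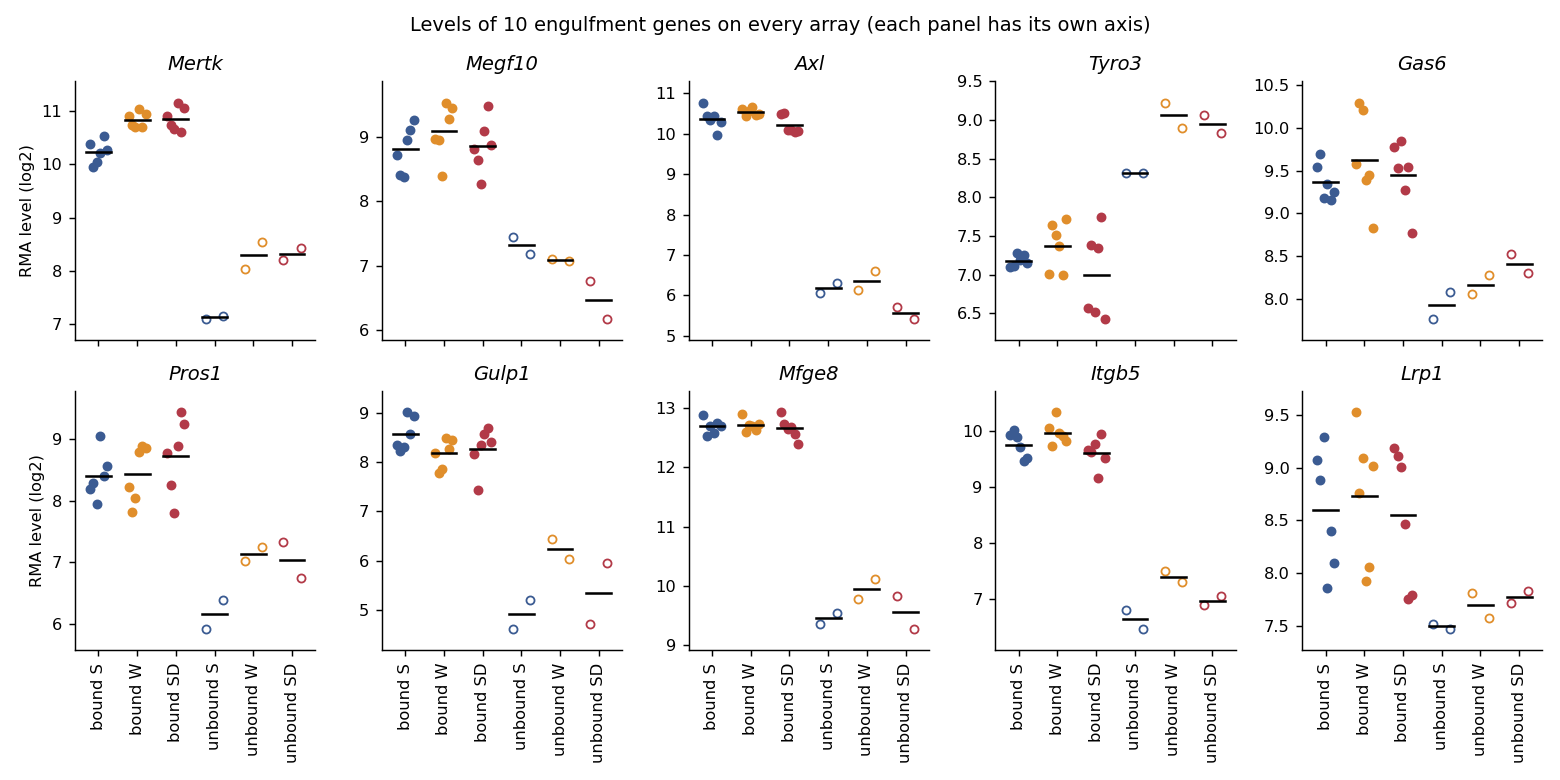
Log2 level (RMA) of each of the 10 genes on every array, 1 panel per gene with its own axis; filled points are bound arrays (6 per state), open points unbound pools (2 per state), bars are group means, and S, W and SD stand for sleep, waking and sleep deprivation. Mertk on all 6 waking and all 6 sleep deprivation bound arrays lies above its highest sleep array at 10.54, and Tyro3 is the one gene whose unbound points lie above the bound points.

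The upstream stretches of the genes were read from the RefSeq promoter table, which is on build GRCm38.p6 and holds 9 of the 10 genes; Megf10 is the one without an entry. Each stretch is the 250 bases before an annotated transcription start. Those of Mertk, the gene that passed between states in the bound fraction, and of Mfge8, the ligand with the largest difference between fractions, are shown 5′ to 3′ on the gene's strand. Capitals mark the GC box GGGCGG, or its reverse complement, which is the motif bound by Sp1-type factors. The Mertk stretch lies at chr2:128698665-128698914 (plus strand), directly before the gene, and the Mfge8 stretch at chr7:79149061-79149310 (minus strand), likewise directly before the gene.
Mertk: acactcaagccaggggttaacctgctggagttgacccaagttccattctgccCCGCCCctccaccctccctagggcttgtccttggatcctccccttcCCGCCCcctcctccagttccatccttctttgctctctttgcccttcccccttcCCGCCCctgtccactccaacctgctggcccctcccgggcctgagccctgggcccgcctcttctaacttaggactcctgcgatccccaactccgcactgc
Mfge8: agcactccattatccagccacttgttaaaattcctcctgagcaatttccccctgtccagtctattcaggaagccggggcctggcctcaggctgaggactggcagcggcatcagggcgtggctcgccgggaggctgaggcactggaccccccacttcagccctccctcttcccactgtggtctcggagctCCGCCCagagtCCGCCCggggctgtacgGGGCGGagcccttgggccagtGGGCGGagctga
The Mertk stretch held 3 GC boxes and the Mfge8 stretch held 4. All 9 stretches held at least 1, as did 32.742% of the 32851 stretches in the table. Of the 14452 genes tested on the arrays that have a stretch, 53.411% held at least 1 in any of their stretches. The 9 genes here have 1 stretch each, so the share of genes tested is not a like-for-like measure. The E-box CACGTG, through which the circadian CLOCK complex binds, was in 0 of the 9 stretches and, counted in the same way, in 8.732% of the genes tested. The cAMP response element TGACGTCA and the AP-1 site TGANTCA were also in 0 of 9, against 2.498% and 6.698% of the genes tested. Each motif was searched on both strands, and a match describes the letters only.

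Among the TAM receptors, Axl and Mertk were higher and Tyro3 was lower in the bound fraction. Axl, a receptor that is best known for its use of Gas6, lay between 9.97 and 10.77 on the bound arrays (median 10.44) and between 5.42 and 6.61 on the unbound arrays (median 6.09). The 2 ranges lay far apart, and the difference was the largest of the 10 genes on their brightest probe sets, 4.17 ± 0.10 (SE) or 18.0-fold, with an adjusted p of 4.74e-19. A second Axl probe set was dim, with a mean of 2.11, and did not pass (-0.07, adjusted p = 0.935 over all probe sets). With the mean of both, the difference was 2.05 (adjusted p = 7.15e-16), smaller than that of Mfge8 at 2.90 on the same basis. Mertk, which takes both Gas6 and Pros1, ranged from 9.95 to 11.16 with a median of 10.70 on the bound arrays, and from 7.10 to 8.55 with a median of 8.12 on the unbound arrays. The 2 ranges were apart, and the difference was 2.57 ± 0.10 (5.95-fold, adjusted p = 6.41e-16). Tyro3, the TAM receptor known from neurons, ranged from 6.43 to 7.75 (median 7.22) in the bound and from 8.31 to 9.22 (median 8.86) in the unbound fraction. All bound arrays lay below all unbound ones, and the difference was -1.75 ± 0.16, which is 3.36-fold lower (adjusted p = 1.30e-08). A second, dimmer Tyro3 probe set gave -0.33, with an adjusted p of 0.137 over all probe sets, and did not pass, and with the mean of both the difference was -1.05 (adjusted p = 1.45e-07). The name of a set of astrocyte receptors is thus not matched by Tyro3 in these fractions.

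The other receptors were higher in the bound fraction to differing degrees. Itgb5, the integrin subunit that serves as a receptor for Mfge8, ranged from 9.16 to 10.33 in the bound and from 6.48 to 7.50 in the unbound fraction, a difference of 2.60 ± 0.11 (6.08-fold, adjusted p = 2.41e-15). Its 4 probe sets gave 2.63 to 3.04 relative to the median of all probe sets, so the separation did not hang on the probe set used. Its partner subunit Itgav differed by -0.20 ± 0.21 and did not pass (adjusted p = 0.877). Megf10, a scavenger-type receptor with repeats of the epidermal growth factor kind, ranged from 8.26 to 9.54 against 6.17 to 7.45, a difference of 1.81 ± 0.17 (3.50-fold, adjusted p = 1.71e-09). Lrp1, a large endocytic receptor of many ligands, ranged from 7.75 to 9.52 against 7.47 to 7.83, and its difference was 0.81 ± 0.25 (1.76-fold, adjusted p = 0.00175). Lrp1 was the member with the widest spread on the bound arrays (SD 0.59, n = 18), and 2 of them lay within the unbound range. The second Lrp1 probe set was dim, with a mean of 3.17 over the arrays, and went the other way at -1.14. With the mean of both probe sets, Lrp1 came to -0.17 (adjusted p = 0.767) and its call was lost.

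The 3 bridging ligands and the adaptor were also higher in the bound fraction. Mfge8, a secreted protein that binds phosphatidylserine, ranged from 12.39 to 12.93 in the bound and from 9.28 to 10.13 in the unbound fraction, and varied little among bound arrays (SD 0.13, n = 18). The difference was 2.87 ± 0.09 (7.30-fold, adjusted p = 1.25e-17). Pros1, a ligand of Tyro3 and Mertk that also acts in blood clotting, ranged from 7.79 to 9.43 against 5.92 to 7.33, a difference of 1.59 ± 0.21 (3.01-fold, adjusted p = 2.24e-07). Gas6, a ligand of all 3 TAM receptors, ranged from 8.77 to 10.30 against 7.77 to 8.53, a difference of 1.15 ± 0.17 (2.23-fold, adjusted p = 8.22e-07). For both vitamin K-dependent ligands the fractions did not overlap, but they lay closer to each other than those of Mfge8. A second Gas6 probe set was dim, with a mean of 3.73, and gave -0.77. With the mean of both, Gas6 came to 0.19 (adjusted p = 0.0195). Gulp1, the adaptor, ranged from 7.43 to 9.01 against 4.62 to 6.44, a difference of 2.68 ± 0.19 (6.41-fold, adjusted p = 1.21e-11), and its 3 probe sets gave 2.77 to 3.08.

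**Figure D2:**
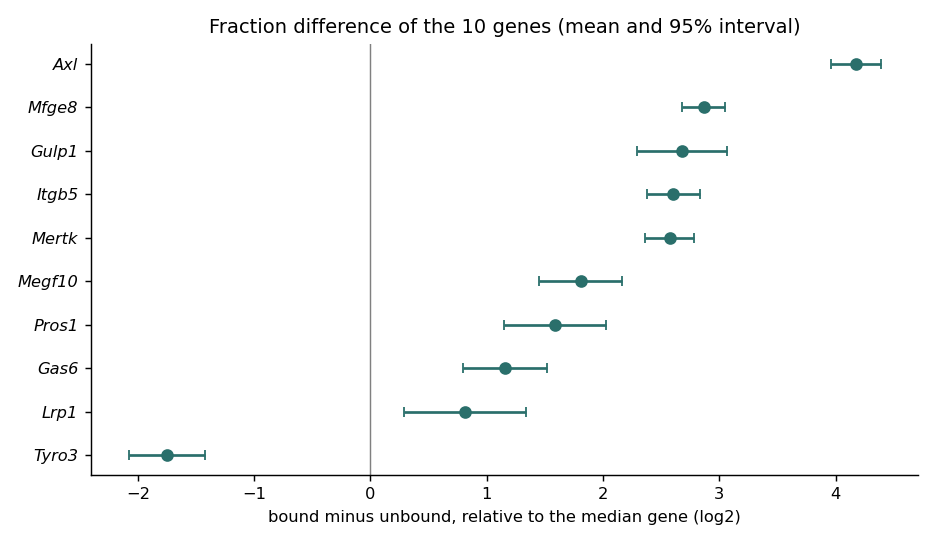
Log2 difference, bound minus unbound, relative to the median gene for each of the 10 genes, ordered by size; points are the fitted differences over 18 bound and 6 unbound arrays and bars their 95% intervals. Axl is highest at 4.17, Lrp1 lowest of the positive ones at 0.81, and Tyro3 alone lies below 0 at -1.75.

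Genes that act after or beside these receptors were mixed between fractions. The shares of all genes were 42.2% higher and 27.2% lower, or 69.4% in either direction. Of 15 measured genes of engulfment signalling, the bound fraction was higher for 9 and lower for 2, with a median of 0.65. The share that passed, 73.3%, was near that of all genes. The higher ones included Elmo2 (5.80-fold) and Dock1 (5.49-fold), which together activate the GTPase Rac1, Rhog (4.50-fold), which recruits Elmo proteins, the lipid transporter Abca1 (4.48-fold) and the dynamin Dnm2 (3.38-fold), which pinches vesicles from the membrane. Rac1 itself was 1.69-fold higher. Elmo1, the close relative of Elmo2, was 2.76-fold lower, and the exchange factor Trio 2.29-fold lower.

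Of 6 measured genes that modify the ligands or shed the receptors, 3 were higher and 2 lower, with a median of 0.52. The share that passed was 83.3%, against 69.4% of all genes. Ggcx, the carboxylase that Gas6 and Pros1 need to bind phosphatidylserine, was 2.23-fold higher, and Vkorc1, which recycles its cofactor vitamin K, 3.75-fold higher. Adam17, the protease that cuts Mertk from the cell surface, was 3.67-fold higher, while the related protease Adam10 was 1.66-fold lower and the Vkorc1 relative Vkorc1l1 2.38-fold lower.

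Of 19 other uptake receptors and their partners, 8 were higher and 5 lower, with a median of 0.08. The share that passed, 68.4%, was near the 69.4% of all genes (42.2% higher, 27.2% lower). Adgrb1, a phosphatidylserine receptor that signals through Elmo and Dock1, was 1.80-fold higher, whereas Megf11, the relative of Megf10, was 7.76-fold lower. Tyrobp, the microglial signalling partner of Trem2, was 4.75-fold lower, the lipoprotein receptor Vldlr 4.63-fold lower, and the integrin subunit Itgb3 4.56-fold lower. This split depended on scaling: with each array centred on its median it was 1 higher and 9 lower.

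Of 13 eat-me signals and opsonins, 6 were higher and 5 lower, with a median of -0.30. The share that passed was 84.6%, against 69.4% of all genes (42.2% higher, 27.2% lower). The phosphatidylserine-binding Anxa5 was 4.88-fold higher, Anxa1 2.46-fold and the complement subunit C1qc 2.10-fold higher. Xkr4, of a family of lipid scramblases, was 4.89-fold lower, and Cd47, a don't-eat-me signal, 2.48-fold lower. With centring the split was 5 higher and 7 lower.

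Of 24 genes of the lysosome and phagosome, 13 were higher and 7 lower, with a median of 0.32. The share that passed was 83.3%, against 69.4% of all genes (42.2% higher, 27.2% lower). The higher ones included Gm2a (3.98-fold), an activator of ganglioside breakdown, Tfeb (3.96-fold), a transcription factor of lysosomal genes, the proteases Ctsd (3.43-fold) and Ctsl (3.04-fold), the cholesterol carrier Npc2 (3.35-fold) and the membrane protein Lamp2 (2.84-fold). Ctss, a protease known from microglia, was 5.78-fold lower, Atp6v1a, a subunit of the proton pump, 2.46-fold lower, and the autophagy gene Becn1 2.35-fold lower. With centring the split was 12 higher and 11 lower. The 10 genes themselves kept 9 higher and 1 lower under both other scalings.

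**Figure D3:**
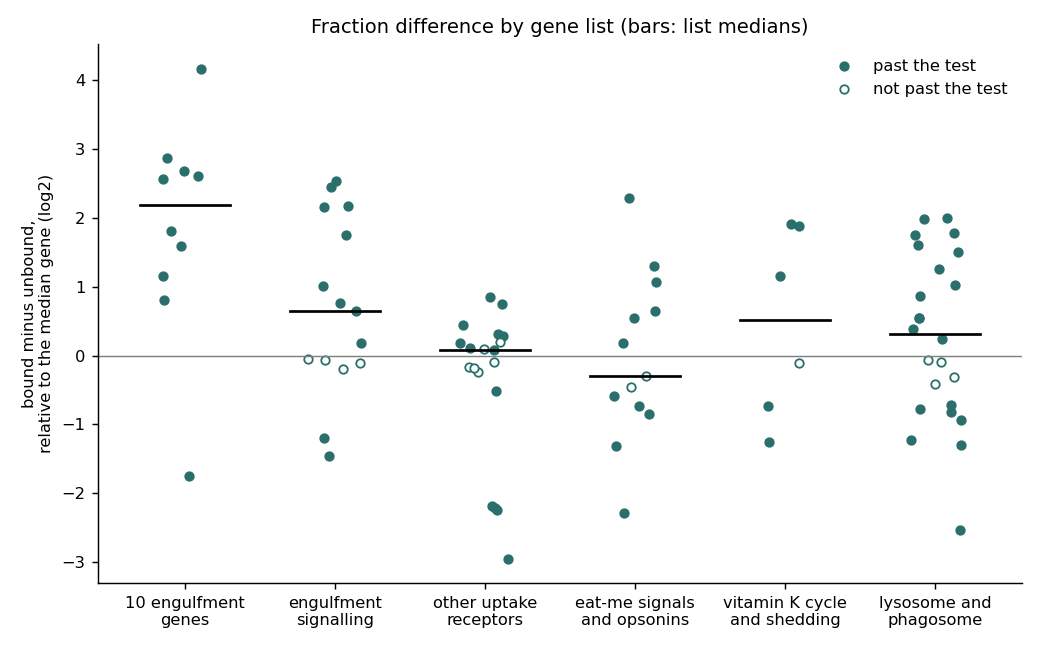
Log2 difference, bound minus unbound, relative to the median gene, for the 10 engulfment genes and for each measured gene of 5 related lists; filled points passed the test, open points did not, and bars are list medians. The median of the 10 genes is 2.19 and those of the other lists run from -0.30 to 0.65.

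Between states, Mertk was the one gene of the 10 that passed the test in the bound fraction. It was higher both in waking and after sleep deprivation than in sleep. In sleep its level ranged from 9.95 to 10.54 with a median of 10.24, and the mean was 10.23 ± 0.21 (SD, n = 6). In waking it ranged from 10.70 to 11.04 with a median of 10.82 (mean 10.84 ± 0.14), and after sleep deprivation from 10.62 to 11.16 with a median of 10.83 (mean 10.86 ± 0.22). All 6 waking and all 6 sleep deprivation arrays lay above the highest sleep array, while waking and sleep deprivation overlapped. Of all genes, 6.01% lay above sleep on all 6 waking arrays and 7.44% on all 6 sleep deprivation arrays, and 1.24% and 1.02% lay below it on all 6.

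The difference of Mertk between waking and sleep was 0.52 ± 0.12 (SE) with a 95% interval of 0.26 to 0.78, which is 1.43-fold (limma, adjusted p = 0.00271). After sleep deprivation it was also 0.52 ± 0.12 and 1.43-fold (adjusted p = 0.0017). Both comparisons share the 6 sleep arrays. Mertk was 1 of 10 genes to pass in each of them, where 11.2% of all genes passed for waking (9.07% higher, 2.14% lower) and 14.3% for sleep deprivation (12.3% higher, 2.02% lower), so the share of the 10 genes was near that of all genes. No other of the 10 had an unadjusted p under 0.05 in either comparison, where 23.1% and 26.4% of all genes had one. In simulated data, where 121 and 136 genes were called, 20.9% and 31.3% of added differences of 0.5 were recovered. Far more genes were called in the measured data, 2039 and 2597, so the adjusted threshold was stricter in the simulation. The recovered shares therefore do not carry over to the measured data. Genes that did not pass may still differ.

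Sleep deprivation and waking differed in Mertk by -0.003 ± 0.12, with a 95% interval of -0.26 to 0.25 (adjusted p = 0.978). In that comparison 0 of 10 genes passed in limma, against 6.84% of all genes (4.17% higher, 2.67% lower), and 2 had an unadjusted p under 0.05, against 18.7% of all genes. These were Axl, at -0.34 ± 0.12 (unadjusted p = 0.0192, adjusted p = 0.15), and Itgb5, at -0.38 ± 0.14 (unadjusted p = 0.0217, adjusted p = 0.162).

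Mertk passed in both comparisons with each bound array left out in turn. Among animals 1 to 3 alone, its difference was 0.57 in waking (adjusted p = 0.0357) and 0.55 after sleep deprivation (adjusted p = 0.0283), and among animals 4 to 6 alone it was 0.47 (adjusted p = 0.117) and 0.48 (adjusted p = 0.0796), which did not pass. The split of all changed genes into directions was tied to scaling: 80.9% of the genes that passed for waking were higher in the deposited values, against 53.8% after a repeated quantile normalization and 64.9% after centring. For sleep deprivation the shares were 85.9%, 55.8% and 69.2%. Mertk passed under both scalings, with an adjusted p of 0.0122 and 0.0127 for waking and of 0.00881 and 0.0105 for sleep deprivation.

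**Figure D4:**
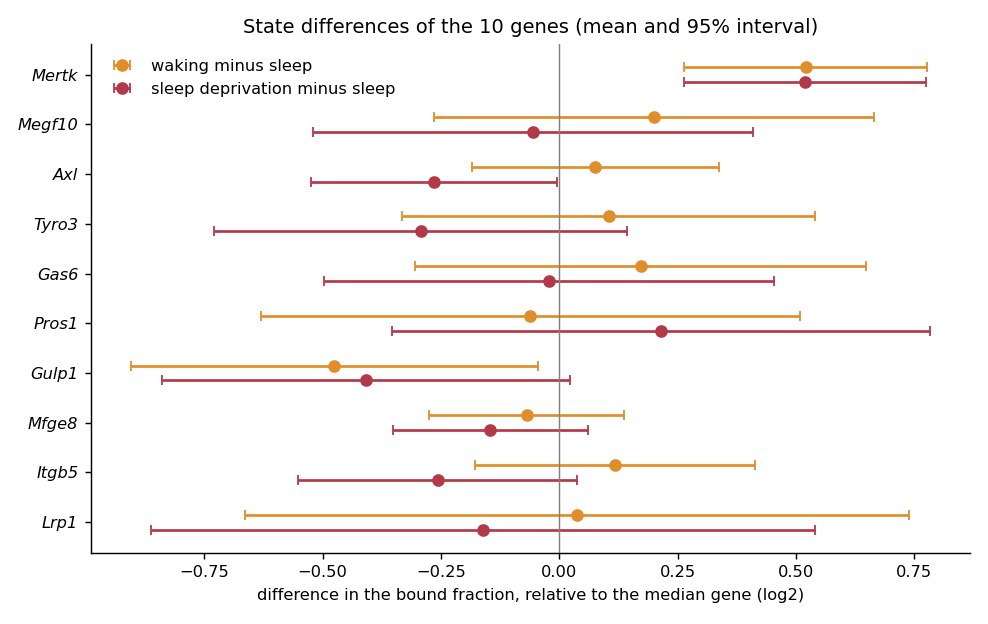
Log2 difference of each of the 10 genes in the bound fraction, waking minus sleep and sleep deprivation minus sleep, relative to the median gene; points are the fitted differences over 6 arrays per state and bars their 95% intervals. Mertk stands at 0.52 in both comparisons, with intervals that begin at 0.26, and the only other intervals that leave out 0 are those of Gulp1 in waking and Axl after sleep deprivation, which did not pass the test.

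Marker levels were read beside Mertk, since microglia and other cells express it too. The mean level of 12 astrocyte markers on the bound arrays ran from 12.20 to 12.31 in sleep, from 12.25 to 12.46 in waking and from 12.27 to 12.44 after sleep deprivation. Of these markers, 2 rose in waking, Gjb6 (1.42-fold), a gap junction gene, and Fgfr3 (1.20-fold), and Gjb6 rose after sleep deprivation (1.50-fold). The mean level of 11 microglia markers ran from 5.73 to 6.20 in sleep, from 6.10 to 6.43 in waking and from 5.57 to 6.50 after sleep deprivation. In waking, 2 of the 11 rose, Tmem119 (1.98-fold) and Itgam (1.33-fold), and after sleep deprivation Itgam rose (1.60-fold). Relative to the median gene, list medians in waking and after sleep deprivation were 0.34 and 0.18 for microglia and -0.05 and -0.07 for astrocytes. Of the microglia markers, 2 of 11 lay below the median level of all probe sets on the bound arrays, Itgam among them with a mean of 3.27. Of the 2 red blood cell genes measured, both below that median level, Hba-a1 rose 1.31-fold in waking (adjusted p = 0.0471) and 1.41-fold after sleep deprivation (adjusted p = 0.0112), and Alas2 rose 1.68-fold after sleep deprivation (adjusted p = 0.00415). Their mean level ran from 3.42 to 3.83 in sleep, from 3.86 to 4.33 in waking and from 4.17 to 4.63 after sleep deprivation, so that both waking states lay above sleep, as for Mertk. Under a repeated quantile normalization the calls of Hba-a1 were lost (adjusted p = 0.375 and 0.148), and with centring that for waking was (adjusted p = 0.117). Of 8 markers of ependyma and choroid plexus 0 passed in either comparison in limma, with 1 at an unadjusted p under 0.05 in each. Their median differences were -0.87 and -1.1, and their mean level ran from 6.50 to 8.87 in sleep, from 5.50 to 8.78 in waking and from 5.56 to 8.55 after sleep deprivation. Other cell types had markers that passed too. Of the pericyte and smooth muscle markers, Myh11 rose in both comparisons (1.74-fold and 1.397-fold) and Kcnj8 fell in both (1.59-fold and 1.54-fold lower). In waking, the endothelial marker Cldn5 (1.595-fold) and the oligodendrocyte marker Ermn (2.08-fold) rose. Myh11, Kcnj8 and Cldn5 were dim, with bound means below the median level of all probe sets. Of 12 neuron markers, 1 rose in each comparison and 1 fell after sleep deprivation. The part of these cell types in the result for Mertk was not tested.

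The other TAM receptors did not pass between states in the bound fraction. Axl had means of 10.37 ± 0.26 in sleep, 10.54 ± 0.08 in waking and 10.22 ± 0.22 after sleep deprivation (SD, n = 6 each), and its 3 ranges overlapped. Its differences from sleep were 0.08 ± 0.12 (SE) in waking and -0.26 ± 0.12 after sleep deprivation. Tyro3 lay at 7.18 ± 0.07 in sleep, 7.37 ± 0.31 in waking and 7.00 ± 0.56 after sleep deprivation. Its spread was lowest in sleep, where all 6 arrays lay between 7.10 and 7.28, and highest after sleep deprivation, where they ran from 6.43 to 7.75. The 95% interval of its difference from sleep was -0.33 to 0.54 for waking and -0.73 to 0.14 for sleep deprivation.

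Megf10, Itgb5 and Lrp1 overlapped across the 3 states. Megf10 lay at 8.81 ± 0.36 in sleep, 9.10 ± 0.42 in waking and 8.86 ± 0.41 after sleep deprivation (SD, n = 6 each), with a difference of 0.20 ± 0.22 (SE) in waking and -0.06 ± 0.22 after sleep deprivation. Itgb5 lay at 9.75 ± 0.23, 9.96 ± 0.21 and 9.61 ± 0.27 in the same order. All 6 sleep deprivation arrays lay below the waking mean and 4 of 6 below the lowest waking array, and the difference between these states did not pass (adjusted p = 0.162). Lrp1 lay at 8.60 ± 0.57, 8.73 ± 0.62 and 8.55 ± 0.66, and its intervals were the widest of the 10 genes, from -0.66 to 0.74 for waking and from -0.86 to 0.54 for sleep deprivation.

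The ligands did not pass either. Mfge8 lay at 12.69 ± 0.13 in sleep, 12.71 ± 0.11 in waking and 12.66 ± 0.18 after sleep deprivation (SD, n = 6 each), with a 95% interval of -0.27 to 0.14 for waking and of -0.35 to 0.06 for sleep deprivation. These were the narrowest intervals of the 10 genes. Gas6 lay at 9.36 ± 0.21, 9.63 ± 0.55 and 9.45 ± 0.39, and Pros1 at 8.40 ± 0.38, 8.43 ± 0.47 and 8.73 ± 0.62. For Gas6 the interval was -0.30 to 0.65 in waking and -0.50 to 0.45 after sleep deprivation, and for Pros1 it was -0.63 to 0.51 and -0.35 to 0.78.

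Gulp1 was lower in both waking states by an amount that did not pass the test. It ranged from 8.22 to 9.01 in sleep (mean 8.57 ± 0.34, SD, n = 6), from 7.79 to 8.50 in waking (8.18 ± 0.30) and from 7.43 to 8.70 after sleep deprivation (8.27 ± 0.45), and the 3 ranges overlapped. The difference was -0.47 ± 0.20 (SE) in waking (adjusted p = 0.281) and -0.41 ± 0.20 after sleep deprivation (adjusted p = 0.408). With the replicate number as a block, the waking difference passed (adjusted p = 0.0388), and 2 of the 10 genes were then called in place of 1. With the mean of its 3 probe sets, the sleep deprivation difference was -0.55 and passed (adjusted p = 0.0297).

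The deposited values of Gulp1 and of other genes carried a difference between the 2 sets of animals that the unbound pools define. On the bound arrays, 5 of the 10 genes differed between animals 4 to 6 and animals 1 to 3, averaged over states, where 43.7% of all genes did. Lrp1 ranged from 8.76 to 9.52 in animals 1 to 3 and from 7.75 to 9.02 in animals 4 to 6, and 1 waking animal of the latter lay within the former range. Its difference was -0.96 ± 0.16 (adjusted p = 0.000169). Gas6 ranged from 9.18 to 10.30 and from 8.77 to 9.54, a difference of -0.53 ± 0.13 (adjusted p = 0.00502).

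Pros1, Megf10 and Gulp1 went the other way. Pros1 ranged from 7.79 to 8.78 in animals 1 to 3 and from 8.40 to 9.43 in animals 4 to 6, a difference of 0.74 ± 0.13 (adjusted p = 0.000238). Megf10 ranged from 8.26 to 8.97 and from 8.88 to 9.54, a difference of 0.60 ± 0.11 (adjusted p = 0.000366), and Gulp1 from 7.43 to 8.34 and from 8.28 to 9.01, a difference of 0.52 ± 0.11 (adjusted p = 0.00132). Mertk differed between the sets by 0.16 ± 0.09 and did not pass (adjusted p = 0.159). Each state holds 3 animals of each set, so the sets do not coincide with the states, and what distinguished their handling is not given in the sources used here. The difference of the state effects between the sets was past the test for 0 of the 10 genes and for 0 of 18193 genes in limma. At an unadjusted p under 0.05 it was 0 of the 10 for both states, and 926 of all genes for waking and 1099 for sleep deprivation.

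**Figure D5:**
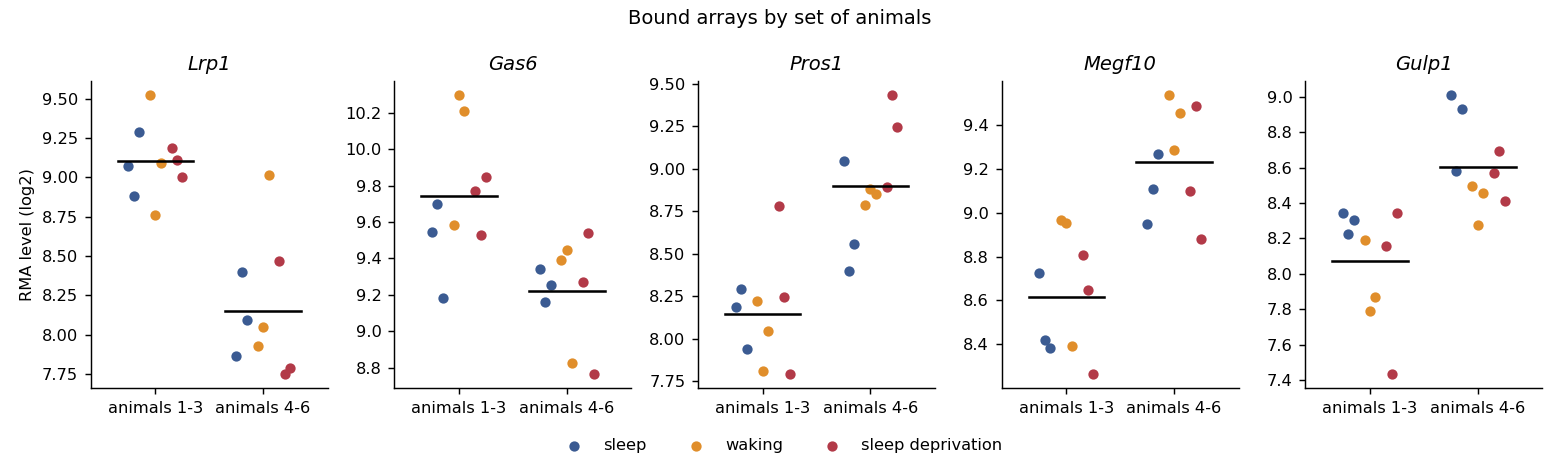
Log2 level (RMA) on the 18 bound arrays of the 5 genes that differed between the 2 sets of animals, animals 1 to 3 at left and animals 4 to 6 at right of each panel; colours give the state and bars the mean of 9 arrays. Lrp1 and Gas6 are lower in animals 4 to 6, and Pros1, Megf10 and Gulp1 are higher.

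Genes whose pattern over the 18 bound arrays was most like that of Mertk were sought among 9097 genes at or above the median level. Likeness was measured as the root mean square difference after each gene was centred on its own mean. The 5 most alike were Hspa2 (0.158), Arglu1 (0.172), Hbegf (0.175), Nt5dc3 (0.175) and Ppp1r3c (0.181), against a median of 0.459 over the genes considered. A gene that did not vary at all would score 0.343, the root mean square of Mertk about its own mean. Hspa2 is a heat shock protein, Arglu1 a regulator of splicing, Hbegf a growth factor ligand of the epidermal growth factor receptor, and Ppp1r3c a scaffold that directs glycogen synthesis. Their differences from sleep lay between 0.37 and 0.62 in waking and between 0.31 and 0.69 after sleep deprivation. The 5 genes were picked on these same arrays for their likeness to Mertk, so a rise from sleep follows from the choice.

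In the unbound fraction, Mertk was again higher in waking than in sleep, and no other of the 10 genes passed. The 2 pools lay at 7.10 and 7.16 in sleep, at 8.03 and 8.55 in waking and at 8.20 and 8.43 after sleep deprivation. Both pools of either waking state lay above both sleep pools, as they did for Tyro3, Pros1, Itgb5 and Lrp1. Gulp1 and Mfge8 did so in waking only, and Gas6 after sleep deprivation only. Megf10 lay below both sleep pools in both states, and Axl after sleep deprivation. With 2 pools per state such a separation says little, and the share of all genes that showed it was not counted. These levels also include the upward shift of the median gene, 0.30 in waking and 0.18 after sleep deprivation. They therefore do not set the 10 genes apart from other genes. The difference of Mertk was 0.86 ± 0.22 in waking (1.81-fold, adjusted p = 0.0423) and 1.01 ± 0.22 after sleep deprivation (2.01-fold, adjusted p = 0.0558), so that the former passed and the latter did not. The latter passed with the mean of a gene's probe sets (adjusted p = 0.0408) and with an intensity trend (adjusted p = 0.0303). For waking 1 of 10 genes passed against 6.32% of all genes (5.71% higher, 0.605% lower), and 5 had an unadjusted p under 0.05, against 32.4% of all genes. For sleep deprivation 0 of 10 passed in limma against 1.87% of all genes (1.42% higher, 0.451% lower), and 6 had an unadjusted p under 0.05, against 25.3% of all genes.

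The waking call of Mertk in the unbound fraction was lost when any of the 4 pools compared was left out, with an adjusted p between 0.124 and 0.16, and under both other scalings (adjusted p = 0.118 and 0.11), where 0 of all genes passed. It was also lost with the replicate block (adjusted p = 0.0654) and without dim genes (adjusted p = 0.0527). Mean levels of astrocyte, neuron and oligodendrocyte markers were higher there in both waking states than in sleep. This holds for levels that include the shift of the median gene. The mean level of astrocyte markers was 8.86 to 8.91 in the sleep pools. It was 9.40 to 9.48 in the waking pools and 9.18 to 9.29 in the sleep deprivation pools. Of these 12, 2 rose in waking, Gjb6 (1.87-fold) and Acsbg1 (1.84-fold). Neuron markers lay at 11.10 to 11.14, 11.39 to 11.42 and 11.45 to 11.47 in the same order. Oligodendrocyte markers lay at 9.81 to 9.90, 9.97 to 10.08 and 10.04 to 10.08. Levels here include the shift of the median gene, 0.30 and 0.18. Relative to it, list medians were 0.20 and 0.09 for astrocytes, -0.01 and 0.11 for neurons and -0.05 and 0.09 for oligodendrocytes. Endothelial markers lay at 4.62 in both sleep pools, at 5.10 to 5.36 in the waking pools and at 4.77 to 5.30 in the sleep deprivation pools, and microglia markers at 6.59 to 6.91, 6.91 to 7.06 and 6.59 to 6.63. The 2 red blood cell genes had a mean level of 4.47 to 5.02 in the sleep pools, 5.57 to 5.79 in the waking pools and 5.12 to 5.25 in the sleep deprivation pools. Their part in the unbound Mertk level was not tested.

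The other genes varied in the unbound pools without passing. Tyro3 lay at 8.31 and 8.32 in sleep, at 8.90 and 9.22 in waking and at 8.83 and 9.06 after sleep deprivation, with a difference of 0.44 ± 0.18 in waking (adjusted p = 0.062) and 0.45 ± 0.18 after sleep deprivation (adjusted p = 0.111). Pros1 lay at 5.92 and 6.38 in sleep, at 7.02 and 7.25 in waking and at 6.75 and 7.33 after sleep deprivation, with differences of 0.68 ± 0.26 and 0.71 ± 0.26. For both genes, as for Mertk, Itgb5 and Lrp1, the sleep pools were the lowest of the 6.

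Megf10 and Axl were lowest in the sleep deprivation pools. Megf10 lay at 7.18 and 7.45 in sleep, at 7.07 and 7.11 in waking and at 6.17 and 6.75 after sleep deprivation, where the difference from sleep was -1.03 ± 0.23 (adjusted p = 0.0981). Axl lay at 6.06 and 6.32, at 6.13 and 6.61 and at 5.42 and 5.72, with a difference of -0.80 ± 0.23 after sleep deprivation (adjusted p = 0.163). Itgb5 lay at 6.48 and 6.81 in sleep, 7.31 and 7.50 in waking and 6.90 and 7.06 after sleep deprivation, and its waking difference was 0.46 ± 0.19 (adjusted p = 0.0609).

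The remaining 4 genes kept narrower or uneven ranges. Mfge8 lay at 9.37 and 9.55 in sleep, 9.79 and 10.13 in waking and 9.28 and 9.83 after sleep deprivation. Gas6 lay at 7.77 and 8.08, at 8.06 and 8.28 and at 8.30 and 8.53, and Lrp1 at 7.47 and 7.52, at 7.57 and 7.81 and at 7.72 and 7.83 in the same order. Gulp1 lay at 4.62 and 5.21 in sleep, 6.04 and 6.44 in waking and 4.72 and 5.95 after sleep deprivation. Its pools thus differed by more than 1 log2 unit within sleep deprivation, and the waking pools were the highest.

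Whether a state effect differed between the fractions was tested directly. For waking, 1 of the 10 genes passed, Gulp1, where 5.6% of all genes passed (1.89% higher, 3.71% lower). For sleep deprivation 0 of 10 passed in limma, where 4.89% of all genes did (2.91% higher, 1.98% lower) and 2 of the 10 had an unadjusted p under 0.05, against 16.6% of all genes. Gulp1 differed by -1.49 ± 0.45 (adjusted p = 0.0289), the waking difference being -0.47 in the bound and 1.02 ± 0.43 in the unbound fraction, neither of which passed by itself. The other 2 Gulp1 probe sets went the opposite way in the unbound fraction, at -1.35 and -1.34, and with the mean of all 3 the difference between fractions was 0.07 (adjusted p = 0.858). The call was also lost without the first sleep pool (adjusted p = 0.191) and without either waking pool (adjusted p = 0.152 and 0.0594), with a repeated quantile normalization (0.066) and with centring (0.0728). With bound arrays averaged per pool and the pool as a block it was lost as well (adjusted p = 0.252). For Mertk the difference between fractions was -0.33 ± 0.25 for waking (adjusted p = 0.232) and -0.49 ± 0.25 for sleep deprivation (adjusted p = 0.249).

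The related lists are given for the bound fraction, where 11.2% of all genes passed for waking and 14.3% for sleep deprivation. In engulfment signalling, 0 of 15 genes passed for waking in limma, with 2 at an unadjusted p under 0.05, and 1 passed for sleep deprivation, Trio (1.46-fold). In the lysosome and phagosome list, 1 of 24 passed for waking, Uvrag (1.82-fold), which acts in endosome maturation, and 0 for sleep deprivation, with 0 at an unadjusted p under 0.05. For eat-me signals and opsonins 0 of 13 passed in either comparison (1 and 2 at an unadjusted p under 0.05), and for the vitamin K cycle and shedding 0 of 6 (0 and 1).

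Of the 19 other uptake receptors, 4 rose in waking and 6 after sleep deprivation, and 0 fell in either, against the same 11.2% and 14.3% of all genes. In waking these were Lrp2 (2.21-fold), a relative of Lrp1, Scarf1 (1.97-fold), a scavenger receptor with repeats like those of Megf10, and the integrin subunits Itgb3 (1.60-fold) and Itgam (1.33-fold). After sleep deprivation they were Cd36 (1.87-fold), Itgam (1.60-fold), Havcr1 (1.51-fold), Timd4 (1.35-fold), Scarf1 (1.25-fold) and Lrp2 (1.24-fold). Their probe sets were all dim, with a mean level below the median of all probe sets, so 0 of the 9 receptors above that median passed in either comparison. Under both other scalings 3 passed in each comparison, Lrp2, Scarf1 and Itgam for waking and Cd36, Itgam and Havcr1 for sleep deprivation. Between the 2 waking states, Cd36 was higher after sleep deprivation (1.96-fold), and Scarf1 (1.58-fold) and Lrp2 (1.78-fold) were lower.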

How the data were processed

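The deposited values are log2 RMA levels, as the submitters' processing notes name them; the version and which arrays were normalized together are not given in the sources used here. Of 45101 probe sets, 64 controls, 932 with several symbols and 9160 with none were left out, and of the 34945 with 1 symbol, 34741 matched RefSeq by Entrez ID. Each of 18193 genes was read from its brightest probe set. Arrays of the same group shared exactly equal values for at least 1 probe set in 48 of 48 pairs, and arrays of different groups in 0 of 228; repeating the quantile normalization over the arrays of a fit is therefore one of the alternatives. Whether each group was normalized by itself is not given in the sources used here, and it could bear on every difference between states or fractions.

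Each comparison was a linear model in limma 3.58.1 with R 4.3.3 (lmFit, eBayes, Benjamini-Hochberg over all genes, adjusted p under 0.05), with the 18 bound arrays, the 6 unbound arrays or all 24 in 6 groups, and were tested on simulated data. Figures were drawn with matplotlib 3.10.9. The members, the lists and the tests were chosen with earlier results of these data known. Named were the 10 genes, list genes that passed a test, cell type markers, Aldh1l1, Rpl10a and the 5 genes most like Mertk; Itgav was named after its value was seen.

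The design numbers animals within each state and pools numbers 1 to 3 and 4 to 6. Deviations of bound arrays with the same number correlated at 0.268 to 0.53 over 18 pairs, all above 0.1, so the block value is given where it changed a call. Alternatives were this block, the set of animals as a block or taken alone, dim genes left out, a gene's probe sets averaged, 2 other scalings, an intensity trend and each array left out in turn.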

Additional observations from a re-analysis of the deposited data

Results flagged for a closer look

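Gulp1 had a waking effect that differed between the fractions by -1.49 on the log2 scale in a direct test of that difference. This value rests on the brightest Gulp1 probe set and on 2 unbound pools per state, and the other 2 probe sets of the gene did not show it. Among the 10 genes and the 3 bound groups of 6 arrays, no array stood apart from the others by Dixon's criterion.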

How the results depend on the processing

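Over 80 results for the 10 genes and 1658 alternatives, 1631 kept their side of the threshold, 17 lost and 8 gained a call, and 2 reversed. The sign changed in 62, with these 2 included. Lrp1 between fractions reversed to -0.17 and the fraction difference of the waking effect of Gulp1 to 0.071, both with the mean of a gene's probe sets. In the bound fraction, waking called 3064 genes with the replicate block (2 of the 10), 3385 with the set of animals as a block and 142 without dim genes, in place of 2039. Sleep deprivation against sleep called 4102, 334 and, with quantile normalization repeated, 1726 genes in place of 2597, and 2 of the 10 with the mean of probe sets. Sleep deprivation against waking called 1913 with the replicate block, 2164 with sets and 76 without dim genes in place of 1244. Quantile normalization repeated together with the set block, which was chosen after seeing the data, called 2, 2 and 1 of the 10 in these comparisons and 2089 genes in the last; the added calls were Gulp1 against sleep and Axl (-0.35, adjusted p = 0.044). In the unbound fraction, waking called 0 genes with the replicate block (5829 at an unadjusted p under 0.05), with quantile normalization (3705) and with centring (3671), 130 without dim genes, 2031 with the mean of probe sets and 2935 with an intensity trend, in place of 1149; of the 10, these gave 0, 0, 0, 0, 1 and 2. Sleep deprivation called 0 genes with the block (4590) and without dim genes (2637), 568 with the mean of probe sets, 135 and 153 with the scalings and 1259 with a trend, in place of 341, with 1 of the 10 for the mean and for the trend. The fraction difference of the waking effect called 0 genes with the block (2256) and 37 without dim genes, in place of 1018, and 0 of the 10 with the block, without dim genes, with the mean of probe sets and with both scalings; that of sleep deprivation called 0 with the block (2049) and 22 without dim genes, in place of 890. Leaving out each array gave 1706 to 1846, 2231 to 2475 and 999 to 1148 genes in the 3 bound comparisons (1, 1 and 0 of the 10), 0 in both unbound ones (at least 3937 and 3143 at an unadjusted p under 0.05, 0 of the 10), 11899 to 12706 between fractions (10 of the 10), and 502 to 1005 and 447 to 867 for the fraction differences (0 to 1 and 0 of the 10), lowest without the first sleep pool. Shares of higher calls moved with the 2 scalings from 90.4% to no call at all in unbound waking, from 76.0% to 48.1% and 49.7% in unbound sleep deprivation, from 60.8% to 56.9% and 39.7% between fractions, and from 33.7% to 54.1% and 71.0% for the fraction difference of waking. The cause of these moves was not tested, beyond fewer genes or arrays in the fits without them. The block on the unbound pools is not supported by pairing (correlations 0.001 to 0.029).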
